A study of Mus musculus with 15 samples.

Results

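The genes described here are 10 brakes on the cell cycle and parts of the p53 axis: the CIP/KIP inhibitors Cdkn1a, Cdkn1b and Cdkn1c, the INK4 inhibitors Cdkn2a, Cdkn2b, Cdkn2c and Cdkn2d, and Trp53, Mdm2 and Ccng1. They were chosen by name, from the pathway they belong to, out of 18279 genes in the table, and all 10 were measured. RNA was sequenced from 15 subcutaneous tumors of Renca, a mouse renal carcinoma cell line of BALB/c origin, grown in female Balb/c mice that were 4 to 6 weeks old when bought. The 5 control tumors came from cells that the sample labels call Renca parental cells and the study calls control knockout cells. The other groups were 5 tumors of Pbrm1 KO clone 4 and 5 tumors of Pbrm1 KO clone 18, single-cell-sorted lines made with transiently expressed Cas9 and puromycin selection. Pbrm1 encodes a bromodomain subunit of the PBAF chromatin remodeling complex. The protocol describes mice left untreated or given PD-1 antibody, and the labels do not say which applied to these tumors. Each knockout group is 1 clone, so the effect of the knockout and the properties of a line cannot be told apart. Tumors are numbered 1 to 5 (control), 6 to 10 (clone 4) and 11 to 15 (clone 18).

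Cyclin-dependent kinases drive the cell cycle by phosphorylating the retinoblastoma family, which releases E2F factors. INK4 proteins bind CDK4 and CDK6 and keep them from pairing with D-type cyclins, while CIP/KIP proteins act mainly on kinases bound to cyclins E and A. The transcription factor p53 induces Cdkn1a, Mdm2 and Ccng1, and Mdm2 is the ubiquitin ligase that marks p53 for degradation, so Trp53 and Mdm2 form a feedback loop. Cdkn2a encodes both p16Ink4a and p19Arf, and p19Arf restrains Mdm2, which ties the INK4 locus to p53. The locus is often deleted in tumors and in cultured lines.

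Cdkn2a has 2 starts that share their second exon in another reading frame. The first 45 coding bases of both GENCODE transcripts are shown because the deposited gene-level count adds them up, so a difference in Cdkn2a cannot be assigned to either protein. Both lie in the first coding exon on the minus strand of chromosome 4 (GRCm38), the p16Ink4a start at chr4:89282067-89282111 and the p19Arf start at chr4:89294479-89294523. The start codon is in capitals.
p16Ink4a start: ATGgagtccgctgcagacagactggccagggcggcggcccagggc
p19Arf start: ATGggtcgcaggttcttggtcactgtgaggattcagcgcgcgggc
The 2 transcripts have 3 exons each, and the middle exon of 341 bases is identical.

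Cdkn2b lies 11646 bases from Cdkn2a on the same strand, and in each clone only 1 of these neighbors was called against controls, Cdkn2b in clone 4 and Cdkn2a in clone 18, so the sequences upstream of their starts are printed. They run from 250 to 36 bases before the RefSeq start (215 bases, GRCm38.p6, minus strand, written in the direction of the gene). Capitals mark a GC box, searched as GGGCGG or its complement CCGCCC on either strand.
p16Ink4a start, chr4:89282228-89282442: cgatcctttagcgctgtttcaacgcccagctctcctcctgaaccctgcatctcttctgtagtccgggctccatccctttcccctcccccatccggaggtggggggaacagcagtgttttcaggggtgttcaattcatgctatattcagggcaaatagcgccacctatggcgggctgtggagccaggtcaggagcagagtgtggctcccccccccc
p19Arf start, chr4:89294655-89294869: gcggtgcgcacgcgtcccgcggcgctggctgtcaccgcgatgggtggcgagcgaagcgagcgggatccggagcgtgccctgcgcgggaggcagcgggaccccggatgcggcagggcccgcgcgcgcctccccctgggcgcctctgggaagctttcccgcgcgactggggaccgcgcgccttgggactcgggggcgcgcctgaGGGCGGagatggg
Cdkn2b start, chr4:89311068-89311282: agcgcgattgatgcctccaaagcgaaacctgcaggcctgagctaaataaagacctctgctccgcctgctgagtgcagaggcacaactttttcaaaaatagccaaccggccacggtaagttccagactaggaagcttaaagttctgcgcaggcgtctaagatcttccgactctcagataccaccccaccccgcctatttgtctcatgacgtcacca
GC content was 78.6% with 35 CpG in the p19Arf window, 59.5% with 7 CpG in the p16Ink4a window and 52.1% with 11 CpG in the Cdkn2b window. The motif occurred in 1 of these 3 windows, that of p19Arf, and in 27.7% of 32817 RefSeq start windows of the same length. Start windows were found for 9 of the 10 genes, with 12 starts, and not for Cdkn1c.

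Library depth ranged from 32924414 to 49099168 reads on genes (median 40860659) and overlapped between the groups. Pbrm1 itself averaged 9012 ± 956 normalized counts (SD, n = 5) in the controls. It averaged 2751 ± 213 (n = 5) in clone 4 and 2838 ± 210 (n = 5) in clone 18, and the 10 knockout tumors were below all 5 controls, as their labels require. Of the renal epithelial markers, Pax8, Cdh16, Krt8 and Krt18 were well above 0 in all groups (control means 3715 for Pax8, 24537 for Cdh16, 59686 for Krt8 and 31805 for Krt18), and none of 8 was at 0 in a group. Of the 8, 1 was higher in knockout tumors, Epcam by 1.23 (adjusted p = 0.00286), and 1 was lower, Krt18 by -0.32 (adjusted p = 0.0197). Markers of other cells differed among tumors. The summed normalized count of 6 macrophage markers was 71246 to 93586 in controls, 55960 to 70438 in clone 4 and 51385 to 69192 in clone 18, and 4 of the 6 passed the test as lower in knockout tumors, with none at 0. In clone 18, 5 were lower than in controls and 1, Cd68, was higher (0.38, adjusted p = 0.0180), and Cd68 was also higher in clone 18 than in clone 4 (0.52, adjusted p = 0.00998). T cell markers were lower for 2 of 6 genes (Cd3g and Cd3d), B cell markers for 2 of 3 (Ighm and Cd79b) and neutrophil markers for 1 of 4 (Csf3r), and sums overlapped between groups. The median log2 difference of the 6 T cell markers was -1.25. Of these, 5 were lower at an unadjusted p under 0.05, and edgeR and DESeq2 each called 4 as lower. Skeletal muscle markers summed to 99.6 to 355 in controls, 68.5 to 3817 in clone 4 and 129 to 2436 in clone 18, with sums above 1000 in tumors 9, 10, 11, 14 and 15 and 0 of 6 genes called in knockout tumors by limma (median log2 difference 2.16), where 2 had an unadjusted p under 0.05, edgeR called 4 and DESeq2 called 5 as higher. Endothelial (5 genes), fibroblast (6), keratinocyte (2) and adipocyte (4) markers gave 0 calls in limma, edgeR and DESeq2 and 0 at an unadjusted p under 0.05, and the keratinocyte markers Krt14 and Krt5 were at 0 in the control and in the clone 4 tumors, respectively. Tumor 10 had the highest fibroblast, endothelial, neutrophil, adipocyte and muscle sums of all tumors. The part of these cells in the results below was not tested, and in bulk tumors fewer cells of a type and less RNA per cell cannot be told apart.

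Per kilobase of exon, the order of levels was similar in the 3 groups. Cdkn2a was highest in each, at a mean of 4501 ± 308 normalized counts per kb in controls, 4820 ± 242 in clone 4 and 6004 ± 963 in clone 18, and its range did not overlap that of Cdkn2c, the next gene. Reads of Cdkn2a and Cdkn2b were present in all 15 tumors. Cdkn2c followed at 1946 ± 184 in controls, then Ccng1 at 1509 ± 77.1 and Cdkn2b at 1021 ± 80.0. Cdkn2b and Cdkn1b (827 ± 86.3) overlapped in controls, and so did Cdkn1b and Mdm2 (739 ± 57.6). Cdkn2d (497 ± 49.5), Cdkn1a (320 ± 104) and Trp53 (281 ± 17.4) were lower, with Cdkn1a overlapping both its neighbors. Cdkn1c was lowest, at 8.65 ± 2.61 per kb. In clone 4, Cdkn2b moved below Cdkn1b and Mdm2 in this order, at 739 ± 60.5 per kb, although its range overlapped that of Mdm2.

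**Figure D1:**
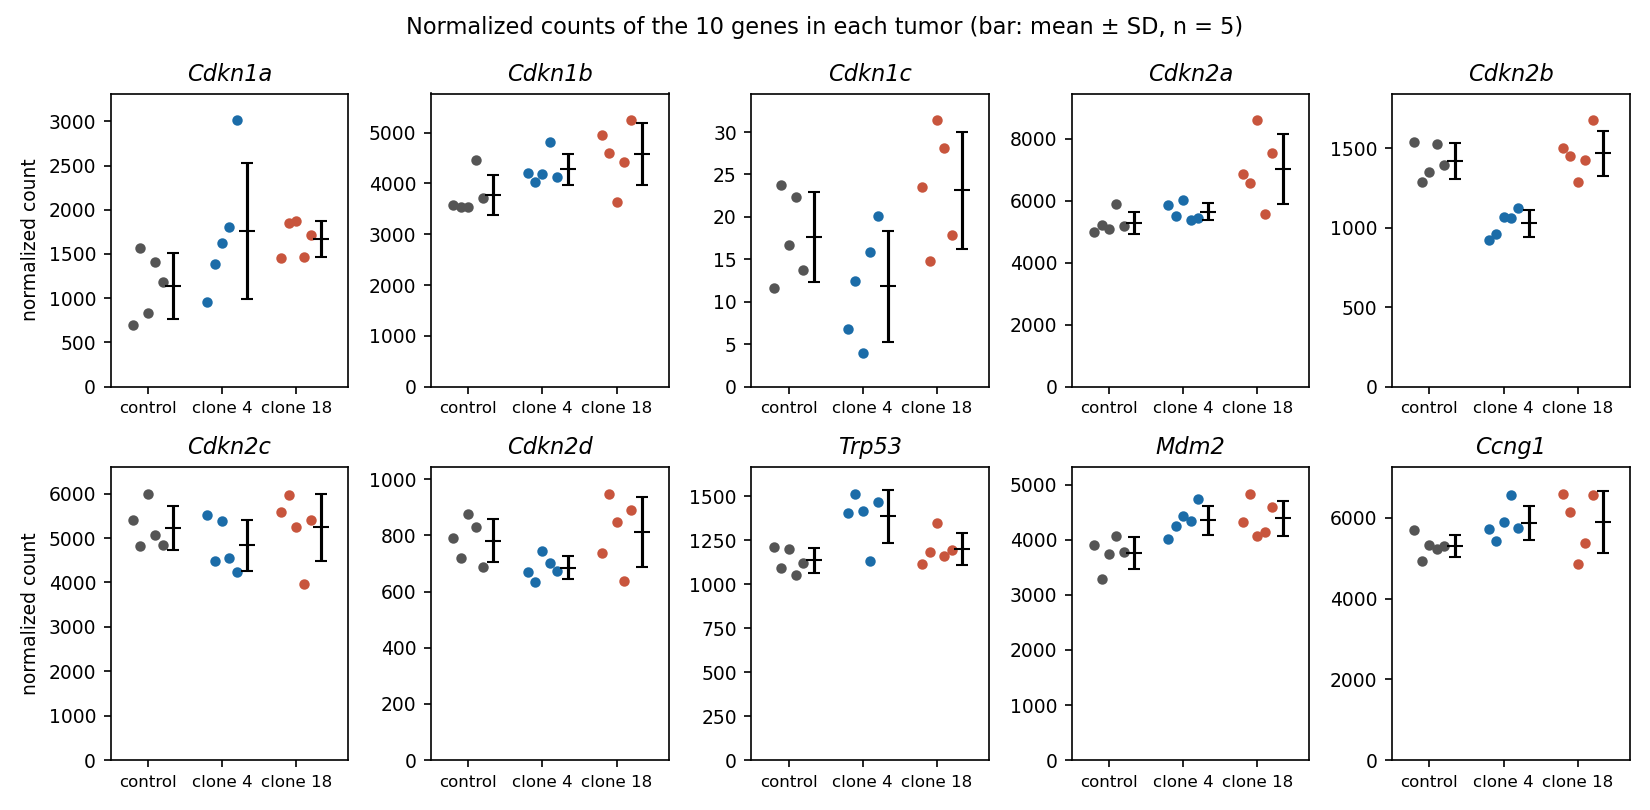
Normalized count of each of the 10 genes in every tumor, by group, on linear axes that start at 0 (points: tumors; bar: mean ± SD, n = 5). The 5 clone 4 tumors lie below all controls for Cdkn2b, and the 5 clone 18 tumors lie above all controls for Mdm2.

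In all knockout tumors (n = 10) against control tumors (n = 5), Mdm2, Cdkn1b and Cdkn1a were higher at an adjusted p under 0.05 and none of the 10 genes was lower. At an unadjusted p under 0.05 in limma 6 were higher and 0 lower. As higher, edgeR called 2 (Cdkn1b and Mdm2) and DESeq2 called 3 (Cdkn1b, Cdkn2a and Mdm2), and both called 0 as lower. The medians were 0.16 for the log2 difference of the 10 genes and -0.02 for all 18250 genes tested. Over all genes, 9.23% were called higher and 12.9% lower, and with quantile normalization the share of all calls that were higher went from 41.7% to 53.4%. None of the 10 genes was without overlap between the groups in this comparison, against 3.11% of all genes without overlap in the higher direction and 4.87% in the lower.

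Cdkn1a encodes p21, the CDK inhibitor that p53 induces and that halts cells in G1. Its normalized counts were 699.8, 1570.4, 829.9, 1406.3 and 1178.9 in the control tumors. They were 957.6, 1391.3, 1621.3, 1802.3 and 3013.3 in clone 4, and 1450.1, 1846.8, 1875.7, 1460.4 and 1716.2 in clone 18. Control tumors spread widely, 6 of 10 knockout tumors lay above all controls, and tumor 10, at 3013.3, stood highest. The log2 difference was 0.60 (SE 0.21, adjusted p = 0.0499), a 1.52-fold higher level with a 95% interval from 1.11 to 2.07, and the exact permutation p was 0.0253, two-sided. The value was 0.59 in clone 4 (adjusted p = 0.120) and 0.61 in clone 18 (adjusted p = 0.0839), and neither passed in the fit of 3 groups. Tumor 10 set much of the clone 4 value, which was 0.37 without it and 0.25 (adjusted p = 0.563) without the 5 tumors high in muscle markers, where the clones differed by 0.53 (adjusted p = 0.414) and all knockout tumors from controls by 0.46 (adjusted p = 0.200). This call lay at the threshold. It was lost when any one of control tumors 1, 3 and 5, clone 4 tumors 8, 9 and 10 or clone 18 tumors 11 to 15 was left out, with adjusted p up to 0.169, and in edgeR (0.0532) and DESeq2 (0.0650). The call was also lost with a pseudocount of 0.1 (0.0522) or 5 (0.0508) and with upper quartile scaling (0.0525). Without the limma trend (0.0830), in a per-gene test without shared variance (0.101) and with clone 4 alone (0.190) it was lost too.

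Cdkn1b encodes p27, the inhibitor that rises in quiescent cells and is destroyed at the start of S phase. The control tumors had 3576.7, 3530.9, 3540.5, 4454.1 and 3721.8 normalized counts. Clone 4 tumors had 4216, 4034.5, 4189.6, 4811.7 and 4128.3, and clone 18 tumors had 4961.7, 4593.1, 3637.6, 4431.4 and 5247.2. The groups overlapped through control tumor 4 and clone 18 tumor 13, and 9 of 10 knockout tumors exceeded the control mean. The log2 difference was 0.23 (SE 0.08, adjusted p = 0.0450, exact permutation p = 0.0186), a 1.17-fold higher level with an interval of 1.05 to 1.32. In the fit of 3 groups clone 18 passed against controls (0.28, SE 0.09, adjusted p = 0.0347) and clone 4 did not (0.19, adjusted p = 0.181), and the clones differed by 0.09 with an interval of -0.10 to 0.28. In the comparison of all knockout tumors the call was kept without control tumor 4 or tumor 7, 10 or 13, and lost without any other single tumor (adjusted p 0.0506 to 0.111). In clone 18 it was lost without control tumor 1, 2, 3 or 5 or tumor 11, 12, 14 or 15, with adjusted p up to 0.0906, and when clone 18 and the controls were fitted by themselves (0.28, adjusted p = 0.0541). Without the 5 tumors high in muscle markers both calls were lost, at 0.14 (adjusted p = 0.271) for knockout tumors and 0.12 (adjusted p = 0.463) for clone 18.

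Genes of p27 turnover, the ubiquitin ligases and cofactors that remove the protein, were given as a list of 8. Of these, 0 were higher and 2 were lower in knockout tumors, Ddb1, the adaptor of CUL4 ligases, by -0.25 (SE 0.07, adjusted p = 0.0144) and Rbx1, the RING subunit of cullin ligases, by -0.20 (SE 0.06, adjusted p = 0.0345). The Rbx1 call was lost in edgeR (adjusted p = 0.0656), with quantile normalization (0.0727), without the limma trend (0.0553), with either clone alone, without the tumors high in muscle markers (0.132) and without control tumor 2 or 4 or tumor 14, and the Ddb1 call with clone 4 alone (0.0664) and without the tumors high in muscle markers (0.0646). In edgeR and DESeq2 1 of the 8 was called higher. The median over the list was 0.00, beside -0.02 for all genes, of which 9.23% were called higher and 12.9% lower. Skp2, the substrate receptor that recognizes p27, was called higher in clone 18 than in controls (0.33, SE 0.12, adjusted p = 0.0491), a gene named here after its value was seen.

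Cdkn1c encodes p57, an imprinted inhibitor with roles in development. It was close to silent, at 11.6, 23.8, 16.7, 22.4 and 13.7 normalized counts in controls. Clone 4 tumors had 6.8, 12.4, 4, 15.9 and 20.1, and clone 18 tumors had 23.5, 14.8, 31.4, 28.1 and 17.9. These values rest on 4 to 28 reads in a tumor, so that the log2 difference of -0.15 (SE 0.39, adjusted p = 0.835) had an interval of -0.97 to 0.67 and a difference within it was not detectable at this depth. Clone 18 stood above clone 4 by 1.04 (SE 0.38, adjusted p = 0.141), which did not pass. An antisense gene, Gm44732, overlaps Cdkn1c on the other strand, and whether counting used strand is not given in the sources used here. The same limit holds for Cdkn1a, which AC167363.2 overlaps on the other strand. Of 5 measured neighbors in the imprinted domain of Cdkn1c, 0 were higher and 1 was lower. Over all genes, 9.23% were called higher and 12.9% lower. The lower neighbor was Slc22a18, a transporter-like gene, at -0.51 (SE 0.16, adjusted p = 0.0284). Its call was lost without control tumor 2, 3 or 4, with quantile normalization (adjusted p = 0.0672) and with clone 18 alone (0.0900).

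Among the INK4 genes the 2 clones differed for Cdkn2b. Cdkn2b, which encodes p15Ink4b, an inhibitor that TGF-beta induces, had 1536.5, 1285, 1348.3, 1529.5 and 1396.7 normalized counts in controls. In clone 4 it had 920.9, 961.3, 1070.3, 1059.3 and 1126.2, all below the lowest control. In clone 18 it had 1499.1, 1451.9, 1289.3, 1424.4 and 1677, within or above the control range. Clone 4 was lower than controls by -0.47 (SE 0.08, adjusted p = 0.000634), 0.724-fold with an interval of 0.644 to 0.815, and the exact permutation p of 0.00794 is the smallest that 5 against 5 tumors can give. Clone 18 differed from controls by 0.05 (adjusted p = 0.723, interval -0.12 to 0.22). The direct comparison of clone 18 with clone 4 gave 0.51 (SE 0.08, interval 0.34 to 0.68, adjusted p = 0.000930), again without overlap. Taken over both clones the log2 difference of -0.21 (adjusted p = 0.263) did not pass. The clone 4 call held without each single tumor, and the difference between clones was 0.48 with adjusted p = 0.0548 without the 5 tumors high in muscle markers, where 3 and 2 tumors of the clones remain.

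Cdkn2a, for p16Ink4a and p19Arf together, had 4982.1, 5219.3, 5086.3, 5898.4 and 5191.4 normalized counts in controls. Clone 4 had 5870.8, 5523.2, 6026.8, 5376.1 and 5448.4, and clone 18 had 6870, 6583.8, 8603.8, 5572.1 and 7552.3. All 10 knockout tumors exceeded the control mean, and 4 of 5 clone 18 tumors exceeded the highest control. Over all knockout tumors the log2 difference was 0.25 (SE 0.10, adjusted p = 0.0775, exact permutation p = 0.0320), which did not pass. It passed in DESeq2, with quantile normalization and with clone 18 alone as the knockout. Clone 18 was higher than controls by 0.40 (SE 0.09, adjusted p = 0.00339), 1.32-fold with an interval of 1.16 to 1.51, and this call held without each single tumor. Clone 4 differed from controls by 0.10 (SE 0.09, adjusted p = 0.515, interval -0.09 to 0.29). The difference between the clones was 0.30 (SE 0.09, adjusted p = 0.0626, interval 0.11 to 0.49), which missed the threshold here and passed it in edgeR, DESeq2, and the upper quartile and quantile normalizations.

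The ratio of Cdkn2b to Cdkn2a counts was 0.270 ± 0.0233 (SD, n = 5) in controls, 0.182 ± 0.0197 (n = 5) in clone 4 and 0.213 ± 0.0386 (n = 5) in clone 18. It spanned 0.246 to 0.308 in controls, 0.157 to 0.207 in clone 4 and 0.150 to 0.256 in clone 18. The ratio was below the control range in all clone 4 tumors and below the control mean in all clone 18 tumors. Of 4 measured neighbors on the chromosome, 0 were higher and 1 was lower in knockout tumors. The shares of all genes called were 9.23% higher and 12.9% lower. The lower neighbor was Focad, which encodes focadhesin, at -0.23 (SE 0.08, adjusted p = 0.0446). Its call was lost when any one of 10 tumors was left out. Of 12 other alternatives, 5 kept the call and 7 lost it. The call was lost in edgeR (adjusted p = 0.0642), with quantile normalization (0.0754) and without the limma trend (0.0642). It was also lost with clone 4 alone (0.108) or clone 18 alone (0.0654). A per-gene test without shared variance (0.0603) and leaving out the 5 tumors high in muscle markers (0.121) lost it too. Mtap, the methionine salvage enzyme often lost with Cdkn2a, differed by 0.10 (adjusted p = 0.214), Mllt3, an elongation complex subunit, by 0.11 (adjusted p = 0.286) and Klhl9, a cullin adaptor, by -0.09 (adjusted p = 0.426). None of the 4 was called in either clone alone by limma, edgeR or DESeq2, and 1 had an unadjusted p under 0.05 in limma in each, as lower. Between the clones these neighbors differed by -0.13 to 0.02 with adjusted p of 0.440 or more, where Cdkn2b differed by 0.51.

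**Figure D2:**
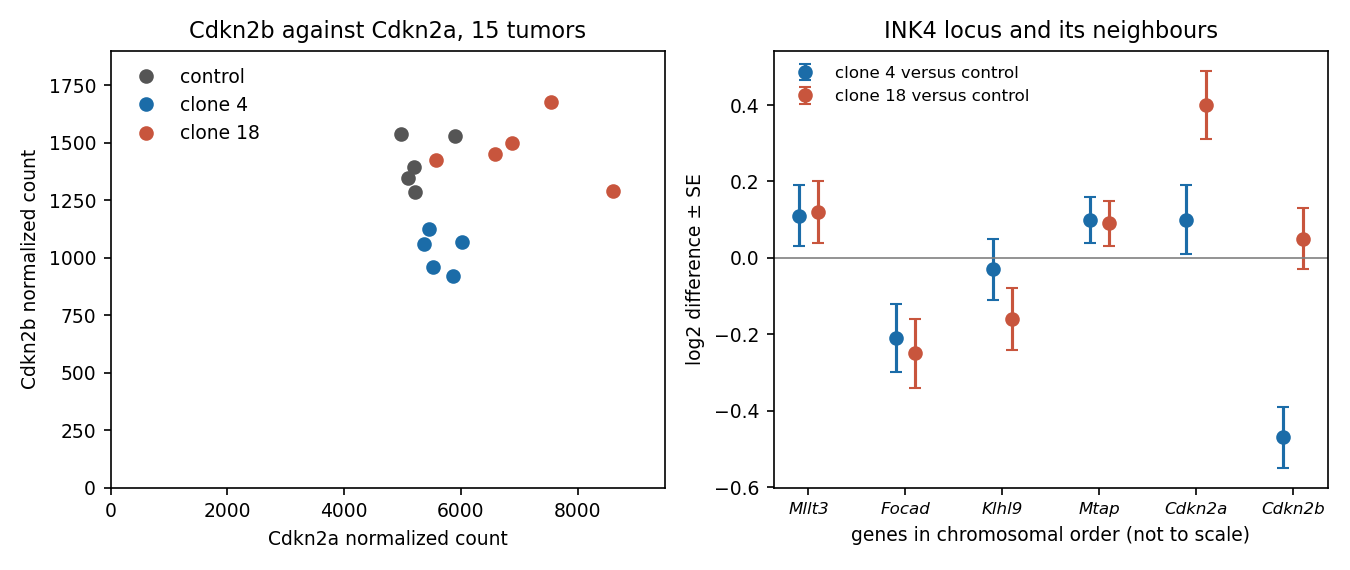
Left, normalized count of Cdkn2b (y) against Cdkn2a (x) in the 15 tumors, axes from 0. Right, log2 difference from control (± SE) for clone 4 and clone 18 of the INK4 genes and 4 neighbors in chromosomal order, not to scale: Cdkn2b is at -0.47 in clone 4 and 0.05 in clone 18, and Cdkn2a at 0.10 and 0.40.

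Cdkn2c (p18Ink4c) and Cdkn2d (p19Ink4d), the inhibitors expressed in proliferating and differentiating cells, did not pass in any comparison. Cdkn2c ranged from 4812.4 to 5998.8 in controls, 4233 to 5526.5 in clone 4 and 3974.4 to 5963.7 in clone 18, with a knockout against control difference of -0.06 (SE 0.09, interval -0.25 to 0.13). Cdkn2d ranged from 688.3 to 877.2 in controls, 634.5 to 744 in clone 4 and 638.5 to 948.6 in clone 18, with a difference of -0.07 (SE 0.10, interval -0.28 to 0.14). Ranges overlapped in every comparison of both genes. Clone 4 tumors were all below the control mean for Cdkn2d, at -0.19 (adjusted p = 0.249).

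Trp53 itself had 1211.6, 1091.2, 1202.7, 1049.9 and 1118.6 normalized counts in controls. Clone 4 tumors had 1406, 1514.6, 1413.4, 1129.8 and 1467.1, and clone 18 tumors had 1113.4, 1184.9, 1349.5, 1159.7 and 1193.4. In clone 4, 4 of 5 tumors lay above all controls and tumor 9 lay inside the control range. The clone 4 difference was 0.28 (SE 0.08, adjusted p = 0.0230, exact permutation p = 0.0238), a 1.22-fold higher level with an interval of 1.08 to 1.37. It was lost without control tumor 2 or 4 or without tumor 6, 7 or 8, with adjusted p of 0.0502 to 0.0594. Clone 18 differed from controls by 0.08 (adjusted p = 0.524) and from clone 4 by -0.20 (SE 0.08, adjusted p = 0.181), so that a difference between the clones was not shown with all tumors. Without tumor 9 the difference between the clones was -0.28 and passed (adjusted p = 0.0372). Over all knockout tumors the value was 0.18 (SE 0.08, adjusted p = 0.123).

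Mdm2 was the member with the smallest adjusted p in the comparison of all knockout tumors with controls. It had 3908.6, 3287.8, 3742.6, 4072 and 3774.6 normalized counts in controls. Clone 4 tumors had 4016.4, 4254.2, 4422.4, 4339.5 and 4743.2, and clone 18 tumors had 4322.8, 4836.7, 4073.5, 4147.8 and 4591.1. All but tumor 6 lay above the highest control. The log2 difference was 0.22 (SE 0.06, adjusted p = 0.0108), 1.17-fold with an interval of 1.07 to 1.27, and the exact permutation p was 0.000666, where the smallest possible is 0.000333. The call held without each single tumor, while without the 5 tumors high in muscle markers the value was 0.20 with adjusted p = 0.0738. Clone 4 (0.21, adjusted p = 0.0366) and clone 18 (0.23, adjusted p = 0.0207) each passed, and the clones differed by 0.01 with an interval of -0.13 to 0.15. The clone 4 call was lost without control tumor 2, 3 or 5 or tumor 7, 8, 9 or 10 (adjusted p up to 0.0989), and the clone 18 call without control tumor 2 (0.0578) or tumor 12 (0.0566).

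Ccng1, which encodes cyclin G1, a p53 target that feeds back on Mdm2, had 5694.6, 4934.8, 5333.9, 5242.9 and 5298.2 normalized counts in controls. Clone 4 had 5726.1, 5436.3, 5908.4, 6555.9 and 5739.1, and clone 18 had 6601.6, 6143.4, 4856.3, 5376.7 and 6562.6. In all, 7 of 10 knockout tumors were above every control, and tumor 13 was below every control. The log2 difference was 0.15 (SE 0.07, adjusted p = 0.143, exact permutation p = 0.0553), which did not pass.

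**Figure D3:**
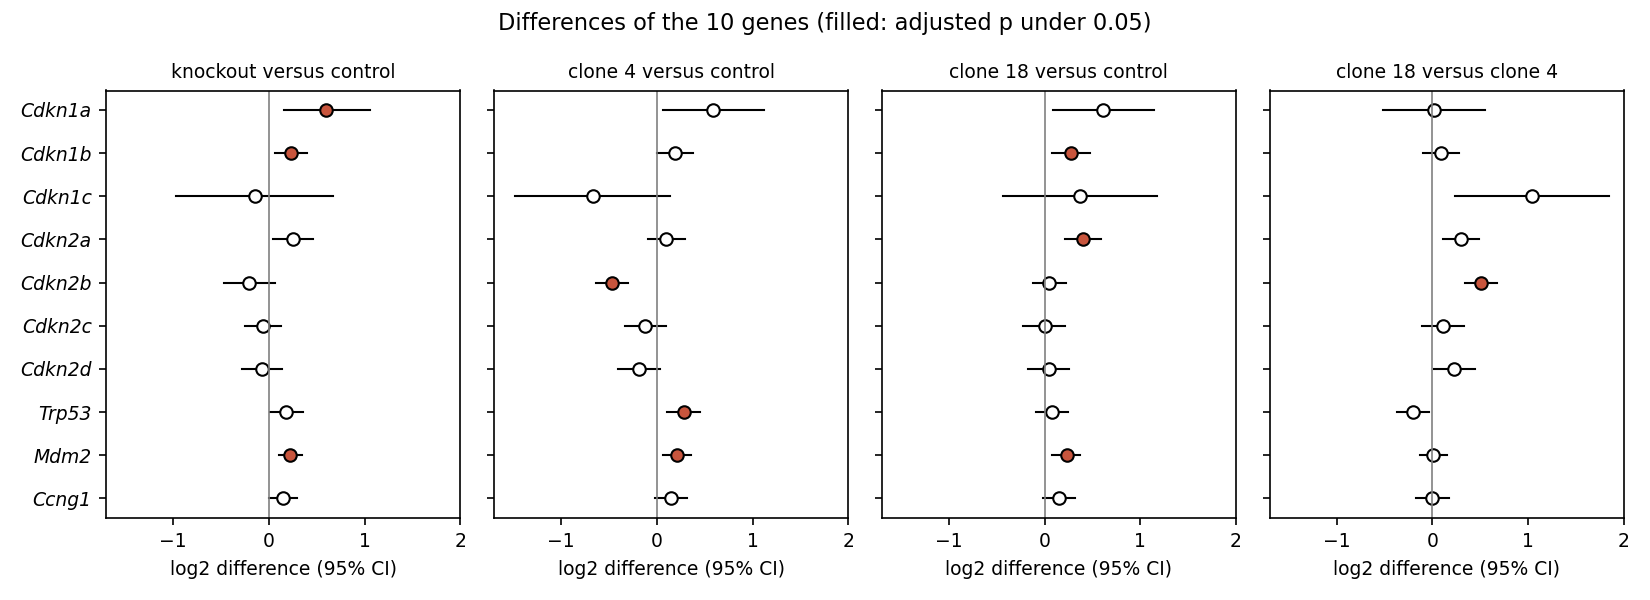
Log2 difference of each of the 10 genes with its 95% confidence interval (horizontal lines) in 4 comparisons, filled where the adjusted p was under 0.05. Mdm2 is filled in the first 3 panels, and Cdkn2b, at 0.51, is the only filled point between the clones.

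By clone, 3 of the 10 genes passed in clone 4 (Trp53 and Mdm2 higher, Cdkn2b lower) and 3 in clone 18 (Cdkn1b, Cdkn2a and Mdm2, all higher). Over all genes, 6.79% were called higher and 10.0% lower in clone 4, and 10.4% higher and 14.2% lower in clone 18. Both comparisons share the 5 control tumors. With quantile normalization the share of calls that were higher went from 40.4% to 50.9% in clone 4 and from 42.3% to 53.4% in clone 18. The lack of overlap of Cdkn2b in clone 4 is read beside 8.20% of all genes that lay below every control there, and that of Mdm2 in clone 18 beside 7.24% above every control. For Mdm2 it was narrow, with tumor 13 at 4073.5 and control tumor 4 at 4072. Between the clones 1 of the 10 genes passed, Cdkn2b, where 2.49% of all genes were called higher in clone 18 and 2.13% lower, and 2.64% lay above without overlap.

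Of the 3 p53-induced members, Mdm2 and Cdkn1a were called higher, Cdkn1a only at the threshold (adjusted p = 0.0499). Beside them stand 33 further p53 targets, all of them tested. Of these, 2 were higher and 9 were lower in knockout tumors, with a median log2 difference of -0.16 beside -0.02 for all genes. Of all genes 9.23% were called higher and 12.9% lower. The count of 2 higher targets is near the share of all genes and is not read as a result about the targets. Lower targets included the stress cytokine Gdf15, Sesn2 and Sesn1 (sestrins that restrain mTORC1), Btg2, an antiproliferative gene, Psrc1, a spindle protein, the death receptor Fas and Bax, the effector of mitochondrial apoptosis. The 2 higher ones were Dram1, a lysosomal protein of autophagy, and Pmaip1, which encodes the BH3-only protein Noxa. Sesn1, Bax, Dram1 and Pmaip1 were named after their values were seen. As background, Gdf15, Sesn2 and Pmaip1 are also induced by ATF4 in the integrated stress response, and Fas and Btg2 are expressed in lymphocytes and other immune cells.

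Gdf15 had 4302, 3821.6, 3559, 4418.2 and 4176.4 normalized counts in controls. It had 1175.5, 1617.8, 1194.6, 1160.5 and 1613 in clone 4, and 2700.2, 2314.4, 3553.8, 2384.6 and 2351 in clone 18. Every knockout tumor was below every control, tumor 13 only just. The log2 difference was -1.11 (SE 0.23, adjusted p = 0.00193). Clone 4 was lower by -1.60 (SE 0.12, adjusted p = 1.95e-07) and clone 18 by -0.62 (SE 0.12, adjusted p = 0.00157), and the clones differed from each other by 0.97 (SE 0.12, adjusted p = 0.000137). None of the other 8 lower targets was called between the clones, where the only other target called was Phlda3, an inhibitor of Akt, higher in clone 18 by 0.49 (SE 0.07, adjusted p = 0.000633) and named after its value was seen. Sesn2 fell from 2839 ± 423 (SD, n = 5) to 1920 ± 163 (n = 10), a log2 difference of -0.56 (SE 0.08, adjusted p = 0.000126). Btg2 fell from 1967 ± 322 to 1345 ± 146 (-0.54, SE 0.09, adjusted p = 0.000517) and Psrc1 from 991 ± 34.8 to 709 ± 69.3 (-0.49, SE 0.07, adjusted p = 0.000147). These 3 were also without overlap. Fas fell from 157 ± 29.2 to 105 ± 21.8 (-0.59, SE 0.17, adjusted p = 0.0166) with overlap, a call lost without control tumor 1 or 4.

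Of the 2 targets that rose with the members, Dram1 went from 1943 ± 47.0 to 2705 ± 239 (0.47, SE 0.06, adjusted p = 3.58e-05), without overlap. Pmaip1 went from 1958 ± 216 to 2637 ± 458 (0.42, SE 0.11, adjusted p = 0.0116), with overlap at tumor 13. Targets that did not pass, named here for their role in apoptosis and p53 feedback after their values were seen, included Bbc3, the Puma gene (-0.11, adjusted p = 0.489), Ppm1d, the Wip1 phosphatase (0.01, adjusted p = 0.915) and Zmat3 (-0.23, adjusted p = 0.200). In clone 4 alone 2 targets were higher and 8 lower, and in clone 18 alone 2 higher and 7 lower. Macrophage and lymphocyte markers were lower in the same tumors, as given above, and their part in these values was not tested. Without the 5 tumors high in muscle markers 7 of the targets passed, 1 of them higher.

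**Figure D4:**
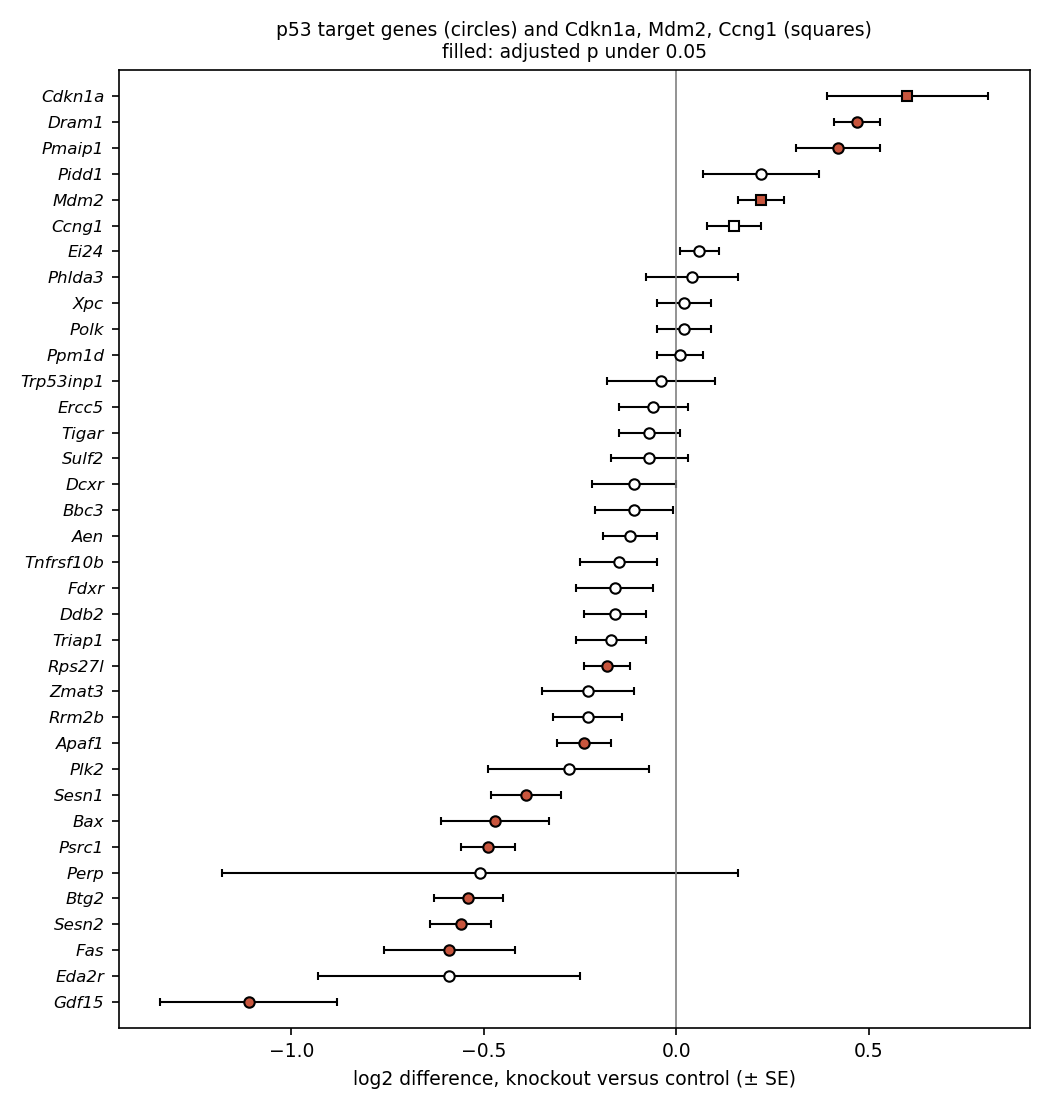
Log2 difference between knockout and control tumors (x, ± SE) of 33 p53 target genes (circles) and of Cdkn1a, Mdm2 and Ccng1 (squares), filled where the adjusted p was under 0.05. Most filled circles lie left of 0, down to Gdf15 at -1.11, while Dram1 at 0.47 and Pmaip1 at 0.42 lie to the right, with Cdkn1a and Mdm2.

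Among 17 measured regulators and relatives of p53, 2 were higher and 5 were lower in knockout tumors (median log2 difference -0.03). Over all genes, 9.23% were called higher and 12.9% lower. Both edgeR and DESeq2 called 2 of the 17 as higher and 4 as lower. Chek1, the checkpoint kinase of the replication stress response, was higher by 0.28 (SE 0.08, adjusted p = 0.0132) and Atm, the kinase that senses double-strand breaks, by 0.26 (SE 0.08, adjusted p = 0.0240). Usp7, the deubiquitinase that acts on Mdm2 and p53, fell from 10979 ± 903 (SD, n = 5) to 8194 ± 781 (n = 10) normalized counts, by -0.42 (SE 0.07, adjusted p = 0.000438), and no knockout tumor reached the control range. Daxx, a partner of Usp7 and Mdm2, was lower by -0.26 (SE 0.06, adjusted p = 0.00431) and Kat5, the acetyltransferase Tip60, by -0.23 (SE 0.06, adjusted p = 0.0139). The other 2 lower genes, outside the rule for naming, were the ligase gene Cop1 (listed as Rfwd2), at -0.21 (adjusted p = 0.0179), and the p53 relative Trp63, with means of 2.17 in knockout and 7.02 in control tumors. The Atm call was lost without control tumor 4 or 5 and the Kat5 call without control tumor 4.

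Downstream of the inhibitors, 4 of 21 CDK, cyclin and RB-E2F genes were higher and 0 were lower in knockout tumors (median 0.06), beside 9.23% of all genes called higher and 12.9% lower. Rbl1, which encodes the pocket protein p107, rose from 4850 ± 317 (SD, n = 5) to 6535 ± 587 (n = 10), by 0.43 (SE 0.07, adjusted p = 0.000190), without overlap. Ccne1, cyclin E1, rose by 0.29 (SE 0.08, adjusted p = 0.0156), E2f2 by 0.26 (SE 0.09, adjusted p = 0.0446) and Cdk4, the kinase that INK4 proteins bind, by 0.18 (SE 0.06, adjusted p = 0.0314). Only 2 of the 21 passed without control tumor 1, 2, 4 or 5, so single controls set this count, and 2 of 21 is near the share of all genes called higher. In edgeR, DESeq2 and with quantile normalization 5 of the 21 were called, all higher. It was 3 without the limma trend and 3 in a per-gene test without shared variance. E2f2 was lost when any one of 11 tumors was left out, Cdk4 without control tumor 1, 2 or 4 and Ccne1 without control tumor 5. Ccnd1, cyclin D1, was lower in clone 18 than in clone 4 (-0.51, SE 0.12, adjusted p = 0.0206), named after its value was seen. Its normalized counts were 6349.2 to 7170.8 in controls and 5203.5 to 6538.3 in clone 18. Clone 4 tumors had 9797.5, 9760.3, 9142.1, 5488.7 and 8769.1. Of 12 proliferation genes none was called in any of the 4 comparisons, with medians of 0.03 in knockout tumors, 0.08 in clone 4 and -0.10 in clone 18 in the limma fit. In knockout tumors 1 of the 12 had an unadjusted p under 0.05, and edgeR and DESeq2 called 0. Between the clones 2 had an unadjusted p under 0.05 and DESeq2 called 1 as lower in clone 18.

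The genes whose pattern over the 15 tumors was most like that of each called member were found among 16484 genes by Pearson's r of log2 values. For Cdkn1a they were Mif (r = 0.925) and Gm43823 (r = 0.913), for Cdkn1b Tbk1 (r = 0.907) and Rabep1 (r = 0.899), and for Mdm2 Zfp184 (r = 0.905) and Plekha2 (r = 0.897). With group means removed the values were 0.924 for Mif, 0.874 for Gm43823, 0.858 for Tbk1, 0.830 for Rabep1, 0.766 for Zfp184 and 0.790 for Plekha2. They are descriptions of the best of many genes, over tumors that share groups, cell makeup and scaling, and carry no test. The spread within a group was widest for Cdkn1c and Cdkn1a, with an SD of 0.60 and 0.46 on the log2 scale, and 0.10 to 0.18 for the other 8 genes.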

How the data were processed

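RNA-seq of 15 subcutaneous Renca tumors, 5 in each group, was analysed from 1 table of normalized counts. The authors aligned reads with TopHat2 to mm10, counted reads per gene with HTSeq and scaled them with DESeq size factors, so the deposited values are a signal in normalized counts rather than raw reads. Tool versions, annotation, strand setting and filters are not given in the sources used here. The deposited values of a tumor were whole multiples of what 1 read is worth (0.881 to 1.309), and 100% of values up to 8000 were whole within 0.1 read. The recovered counts were used for depth and for edgeR and DESeq2 as alternatives, and 0 value columns were left out as unmapped.

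Of 18279 genes, 29 were at 0 in every tumor and 18250 were tested. The main test was limma 3.58.1 (R 4.3.3) with a trend on log2(normalized count + 1), knockout (n = 10) against control (n = 5), and a fit with 3 groups for the clones. P-values were adjusted by Benjamini-Hochberg over all genes tested, and a call is an adjusted p under 0.05. Log2 differences understate changes of low genes. Single genes were also tested with a two-sided exact permutation test of log2 values over tumors, with 3003 splits (smallest p 0.000333) or 252 splits (smallest p 0.00794). Alternatives were edgeR 4.0.16, DESeq2 1.42.0, pseudocounts of 0.1 and 5, a mean of at least 10, upper quartile and quantile scaling, limma without the trend, a per-gene test without shared variance, each clone alone and leaving out each tumor. Leaving out the 5 tumors with muscle marker sums above 1000 was added after the data were seen. The fits were tested on simulated data. Levels per kb used the union of GENCODE M21 exons, and coordinates are GRCm38.

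The 10 genes and the other lists were chosen with earlier results of these data known. Text names all 10 genes, from each other list up to 5 called genes with the largest difference and a mean of at least 10, all measured neighbors of the INK4 locus and, for each called member, the 2 genes most like it. Groups follow the labels. Replicates within a group differed by more than counting noise in all 30 pairs (chi-square per degree of freedom 17.69 to 164.24). The labels do not say that each tumor came from its own mouse, so p-values measure the spread between these tumors.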

Additional observations from a re-analysis of the deposited data

Results flagged for a closer look

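In 5 of 87 groups of 5 tumors, over the 10 genes, the other named pathway genes and Pbrm1, a single tumor stood apart from the other 4, with the gap to its nearest neighbor above Dixon's critical value of 0.71 of the range. Chance flags about 1 in 20 such groups, or 4.4 of 87. For Cdkn1b, control tumor 4 had 4454.1 normalized counts where the other controls had 3530.9 to 3721.8, and clone 4 tumor 9 had 4811.7 where the others had 4034.5 to 4216. For Cdkn2a, control tumor 4 had 5898.4 where the others had 4982.1 to 5219.3. For Trp53, clone 4 tumor 9 had 1129.8 where the others had 1406 to 1514.6. For Daxx, clone 4 tumor 7 had 2573.4 where the others had 2126.3 to 2225.1.

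The difference from control was not the same in the 2 clones for Cdkn2b and for Gdf15. Clone 18 exceeded clone 4 by 0.51 on the log2 scale for Cdkn2b (adjusted p = 0.000930, limma), higher in 5 of 5 tumors than in any clone 4 tumor. For Gdf15 the difference was 0.97 (adjusted p = 0.000137).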

How the results depend on the processing

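The number of the 10 genes called in knockout tumors was 3. It was 5 with quantile normalization (adding Ccng1 and Cdkn2a), 1 without the limma trend, 1 in the two-sample t-test, and 1 to 3 when a tumor was left out. With pseudocounts of 0.1 and 5, upper quartile scaling and edgeR it was 2, with Cdkn1a lost. In DESeq2 it was 3, with Cdkn2a in place of Cdkn1a. Without the 5 tumors high in muscle markers, which leaves fewer tumors, it was 1 in knockout tumors (Trp53), 1 in clone 18 (Cdkn2a) and 0 between the clones, and 7 p53 targets were called. The calls of Cdk4 (adjusted p = 0.0852), Fas (0.0554), Atm (0.131) and Focad (0.121) were lost there too. Leaving out a tumor gave 1 to 3 calls in clone 4, 1 to 4 in clone 18, 1 to 2 between the clones and 2 to 5 RB-E2F genes. Between the clones 2 genes were called, with Cdkn2a added, by the upper quartile and quantile normalizations, edgeR and DESeq2. There, leaving out tumor 9 added Trp53 and leaving out tumor 14 added Cdkn2a. Over 27 alternatives Cdkn1a ranged from 0.44 to 0.73 (adjusted p 0.0162 to 0.200), Cdkn1b from 0.14 to 0.29 (0.0163 to 0.271) and Mdm2 from 0.17 to 0.25 (0.00110 to 0.0738). Over 24 alternatives Cdkn2b in clone 4 ranged from -0.53 to -0.43 (adjusted p at most 0.00257) and Cdkn2a in clone 18 from 0.33 to 0.52 (at most 0.0101).

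Directions reversed only for differences that were not called. With clone 18 alone as the knockout, Cdkn1c was 0.37, Cdkn2b 0.05 and Cdkn2d 0.05. Without the tumors high in muscle markers, Cdkn2c was 0.03 in knockout tumors and 0.10 in clone 18, Cdkn2b was -0.05 in clone 18, and between the clones Cdkn1b was -0.02 and Ccng1 -0.06. Cdkn2c in clone 18 was 0.02 with the upper quartile, 0.05 with quantile normalization, 0.03 in edgeR and 0.01 in DESeq2, and Cdkn1a between the clones was -0.06 in edgeR and in DESeq2. Leaving out single tumors gave -0.28 to 0.04 for Cdkn1c in knockout tumors. In clone 18 it gave -0.0018 to 0.09 for Cdkn2b, -0.05 to 0.09 for Cdkn2c and -0.01 to 0.13 for Cdkn2d. Between the clones it gave -0.17 to 0.24 for Cdkn1a, -0.02 to 0.04 for Mdm2 and -0.04 to 0.07 for Ccng1. The cause was not tested. Of the 10 genes depth limits Cdkn1c, and of the listed genes Trp63 (at 0 in 4 tumors) and Perp (at 0 in 5) rest on fewer counts still. No paired analysis was possible because tumor numbers are not shared between groups.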
